A study of Mus musculus with 18 samples.

Results

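The receptors, ligands and target genes of the Notch pathway were followed in mesenchymal stromal cells (MSCs) of mouse bone marrow (BM) with and without POT1a, a protein that binds the single-stranded end of telomeres. The 10 genes were taken by symbol from the 24421 symbols that both RNA-sequencing count tables list. They were the receptors Notch1, Notch2 and Notch3, the ligands Jag1, Dll1 and Dll4, and the target genes Hes1, Hey1, Hey2 and Heyl. The series had 18 libraries in 6 groups of 3. In culture, CD51+/PDGFRα+ cells came from C57BL/6 mice aged 4 to 6 months that carried a flox-stop-flox tdTomato reporter and either wild-type Pot1a alleles (wt/wt) or floxed ones. They were sorted on day 7, cultured for 3 more days, given 10 μL of Cre vesicles per well for 12 hours and sorted again 48 hours later for tdTomato. The wt/wt cells thus shared the reporter and the Cre exposure with the Pot1a-deleted (Δ/Δ) cells, and both were sampled at week 1 and week 4. The sorted libraries were tdTomato+ BM cells of C57BL/6 mice aged 2 weeks that carried NG2-cre and loxp-tdTomato, titled Pot1awt/Δ (control) or Pot1aΔ/Δ. Their genotype tags give the same homozygous floxed allele for all 6, so the groups follow the titles. NG2-cre acts wherever the NG2 (Cspg4) promoter is or was active, so tdTomato marks a lineage and not a pure cell type.

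Notch receptors are cut at the cell surface when a Jagged or Delta-like ligand on a neighbouring cell engages them, and the freed intracellular domain joins RBPJ and a Mastermind protein on DNA. Hes and Hey genes, which encode transcriptional repressors, are the classical targets of that complex. In marrow, Jag1 is known from stromal and endothelial cells, Dll4 chiefly from endothelium, and Heyl and Notch3 are familiar from the mural cells that wrap small vessels.

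Total counts per library ranged from 12807832 to 90717232 in culture and from 28918757 to 49992698 in the sorted cells. The label of deletion was checked on Pot1a itself, whose gene-level count showed no passing decrease. The log2 fold change of Pot1a was -0.02 at week 1 (Δ/Δ over control, edgeR quasi-likelihood test, adjusted p = 0.987), 0.39 at week 4 (adjusted p = 0.0298, a call lost in 8 of 15 alternatives) and -0.17 in the sorted cells (adjusted p = 0.824). Gene-level counts do not separate deleted from intact transcripts, and the study checked the deletion by qPCR and by PCR of the locus, which were not analysed here, so each direction given here follows the labels, and wt/wt, wt/Δ and Δ/Δ cells mean the libraries labelled so. At least 11 of the 12 stromal markers were at 1 CPM (counts scaled to library size, with trimmed-mean factors) or more in every library. Thy1 was the exception, at 0 to 0.33 CPM in culture and at 0.17 to 2.27 CPM in the sorted cells. Pdgfra stood at 69.1 to 259 CPM in culture and at 83.0 to 194 CPM in the sorted cells. The sorted libraries also held endothelial and blood markers. All 17 endothelial markers were at 1 CPM or more in each of them, with Pecam1 (CD31) at 125 to 208 CPM and Cdh5 at 45.3 to 63.8 CPM. In culture the same markers summed to 10.2 to 19.5 CPM, with 3 to 4 of the 17 at 1 CPM or more in each library. Tek (1.76 to 6.42 CPM) and Egfl7 (2.37 to 5.396 CPM) were present throughout, Vwf and Ptprb reached 3.95 and 8.79 CPM, and Cdh5, Emcn, Sox17 and Robo4 did not exceed 0.045 CPM. Both week 4 replicate 1 libraries stood apart from the other libraries of their groups and are treated with the receptors.

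Levels of different genes were compared per kilobase of exon. In week 1 wt/wt cells Hes1 led with 9.64 ± 1.34 CPM per kb (SD, n = 3), Notch2 followed with 9.14 ± 2.01 and Jag1 with 6.10 ± 0.890. The ranges of those 3 genes overlapped from each to the next. Notch3 and Notch1 were lower at 1.44 ± 0.515 and 1.25 ± 0.333 CPM per kb, and Hey1 stood at 0.890 ± 0.181. Dll1, Dll4, Hey2 and Heyl were each below 0.033 CPM per kb. In week 4 Δ/Δ cells Jag1 led instead, at 16.2 ± 2.37 CPM per kb, though its range overlapped that of Hes1 at 14.1 ± 1.95. Heyl reached 1.04 ± 0.0866 CPM per kb in that group. In sorted wt/Δ cells, which were sequenced as a table of their own and scaled apart, Hes1 stood at 49.4 ± 8.11, Heyl at 27.6 ± 5.30, Hey1 at 15.0 ± 1.97 and Dll4 at 10.4 ± 6.53 CPM per kb. Jag1, at 6.43 ± 5.83, and Dll1, at 5.32 ± 1.69, came next, followed by the receptors, and Hey2 was the lowest member at 0.682 ± 0.252 CPM per kb, its range overlapping that of Notch2 at 1.37 ± 0.682.

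**Figure D1:**
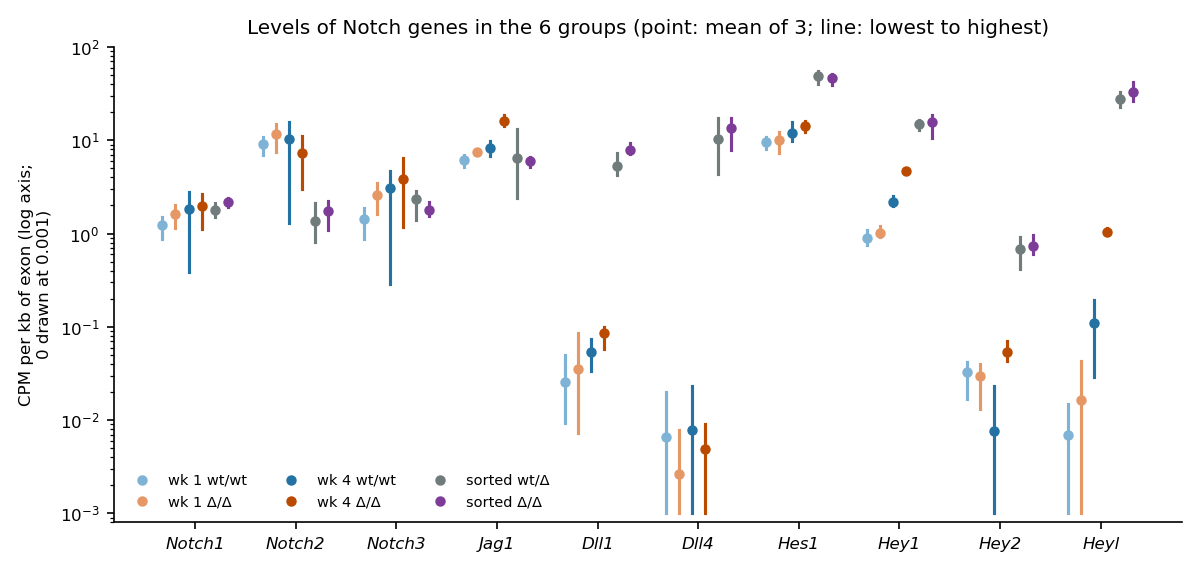
Levels of the 10 Notch genes (x axis) in CPM per kilobase of exon (log y axis) in the 6 groups, with a point at the mean of 3 libraries and a line from the lowest to the highest. Dll1, Dll4, Hey2 and Heyl stand far lower in week 1 culture than in the sorted cells, and Jag1 is highest in week 4 Δ/Δ culture; the culture and sorted tables were scaled apart.

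Notch1, Jag1 and Dll4 lie on chromosome 2, Notch2 and Hey1 on chromosome 3, Notch3 and Dll1 on chromosome 17, Hes1 on chromosome 16, Hey2 on chromosome 10 and Heyl on chromosome 4. Of the genes that the culture results turn on, Jag1 spans chr2:137081456-137116644 (minus strand), Hey1 chr3:8663359-8667256 (minus strand) and Heyl chr4:123233556-123249875 (plus strand) in GRCm38, the build (mm10) of the counts. RefSeq promoter windows were at hand for 7 of the 10 members. None was at hand for Hes1, Hey1 or Heyl, so Hey2 was the only target gene searched. The stretches upstream of the gene are shown for the ligand that changed in culture (Jag1), for the ligand that is seen almost only in the sorted libraries (Dll4) and for the target gene whose window held a match (Hey2). They lie at chr2:137116645-137116770 (minus), chr2:119325534-119325783 (plus) and chr10:30842802-30843033 (minus), and capitals mark the core letters recognised by RBPJ, GTGGGAA or its reverse complement TTCCCAC.
Jag1: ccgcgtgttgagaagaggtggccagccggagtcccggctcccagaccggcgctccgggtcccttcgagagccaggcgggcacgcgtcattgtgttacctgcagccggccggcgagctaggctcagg
Dll4: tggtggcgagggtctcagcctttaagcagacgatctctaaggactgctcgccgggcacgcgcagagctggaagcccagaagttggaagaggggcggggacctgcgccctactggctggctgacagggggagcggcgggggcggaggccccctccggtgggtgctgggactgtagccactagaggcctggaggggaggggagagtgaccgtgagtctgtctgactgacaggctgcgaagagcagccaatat
Hey2: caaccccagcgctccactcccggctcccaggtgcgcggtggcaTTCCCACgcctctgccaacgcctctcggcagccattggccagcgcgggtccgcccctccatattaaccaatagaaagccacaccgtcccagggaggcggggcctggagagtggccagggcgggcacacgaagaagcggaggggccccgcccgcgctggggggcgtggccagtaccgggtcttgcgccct
The letters were searched on both strands in the 250 bases before each RefSeq start. They occurred in 1 of the 7 members, Hey2, with the match starting 207 bases before the start site (position -207), and in 1779 of 32851 mouse promoter windows (5.415%). All 3 stretches shown were rich in G and C, at 70.6%, 65.6% and 71.1%.

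Libraries labelled Δ/Δ held, at week 4, more RNA of the ligand Jag1 and of the target gene Hey1 than those labelled wt/wt, and no tested member was lower with a passing test. Heyl, with few counts, was also higher in each of them. The comparison asks how loss of POT1a had altered the cells several weeks after Cre. Dll1, Dll4 and Hey2 had too few counts for the test in culture. Heyl met the count filter only through the week 4 Δ/Δ libraries, where it is high, so its test is not read as a call and it is described by its counts. Of the other 6 members, 2 were higher and 0 lower in Δ/Δ cells at an adjusted p under 0.05, where 15.7% of all 13169 genes tested changed, 9.20% upwards and 6.46% downwards. In these bulk libraries, fewer cells of a type and less RNA per cell cannot be told apart.

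Jag1, a membrane-bound ligand, was at 39.5, 56.8 and 49.5 CPM in the wt/wt libraries and at 90.7, 109 and 82.4 CPM in the Δ/Δ libraries of week 4. Every Δ/Δ library lay above every wt/wt library. The log2 fold change of Jag1 was 0.95 ± 0.16 (SE), with an adjusted p of 0.00104 by edgeR's quasi-likelihood test. Hey1, a repressor of the Hairy/Enhancer-of-split family, was at 8.22, 6.82 and 6.49 CPM in wt/wt and at 15.0, 14.9 and 15.6 CPM in Δ/Δ cells. These groups did not overlap either, and Hey1 differed by 1.09 ± 0.17 on the log2 scale (edgeR adjusted p = 7.29e-04).

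Heyl, a relative of Hey1, was nearly silent in wt/wt cells, with 2, 22 and 16 counts, and had 141, 118 and 482 counts in Δ/Δ cells. In scaled terms these were 0.149, 0.987 and 0.567 CPM against 4.97, 5.83 and 5.22 CPM, without overlap. The ratio of the pooled counts was 8.40, with an exact 95% interval of 6.11 to 11.9 that covers counting error only. Hes1, the most general of these targets, was at 21.3, 19.9 and 31.8 CPM in wt/wt and at 32.7, 24.8 and 28.7 CPM in Δ/Δ cells. Its groups overlapped, and its log2 difference of 0.24 (95% interval -0.23 to 0.70) did not pass the test (edgeR adjusted p = 0.548). The calls of Jag1 and Hey1 stood with and without both replicate 1 libraries.

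Cell-type markers also differed between the groups at week 4. The summed level of 7 osteoblast markers was 20887 to 28399 CPM in wt/wt and 9618 to 14758 CPM in Δ/Δ cells, and 6 of the 7 were lower in Δ/Δ cells. Of the 11 stromal markers tested, 7 were higher and 2 lower. The part of these shifts in the Notch results was not tested. The 12 mural markers besides Notch3 summed to 5106 to 7279 CPM in wt/wt and to 6004 to 7073 CPM in Δ/Δ cells, with overlap. Of the 10 of them tested, 2 were higher and 0 lower in Δ/Δ cells, namely Des (3.89 to 6.10 against 14.2 to 17.0 CPM) and Rgs5 (0.13 to 0.35 against 0.69 to 1.28 CPM), without overlap. Rgs5 would not have met the count filter without the week 4 Δ/Δ libraries, where it is high, so its test is not read as a call. Abcc9 was at 3.96 to 15.3 CPM in wt/wt and at 15.0 to 22.2 CPM in Δ/Δ cells, Kcnj8 at 0.18 to 0.76 and 0.049 to 0.60 CPM, and Higd1b at 0 and at 0 to 0.035 CPM.

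**Figure D2:**
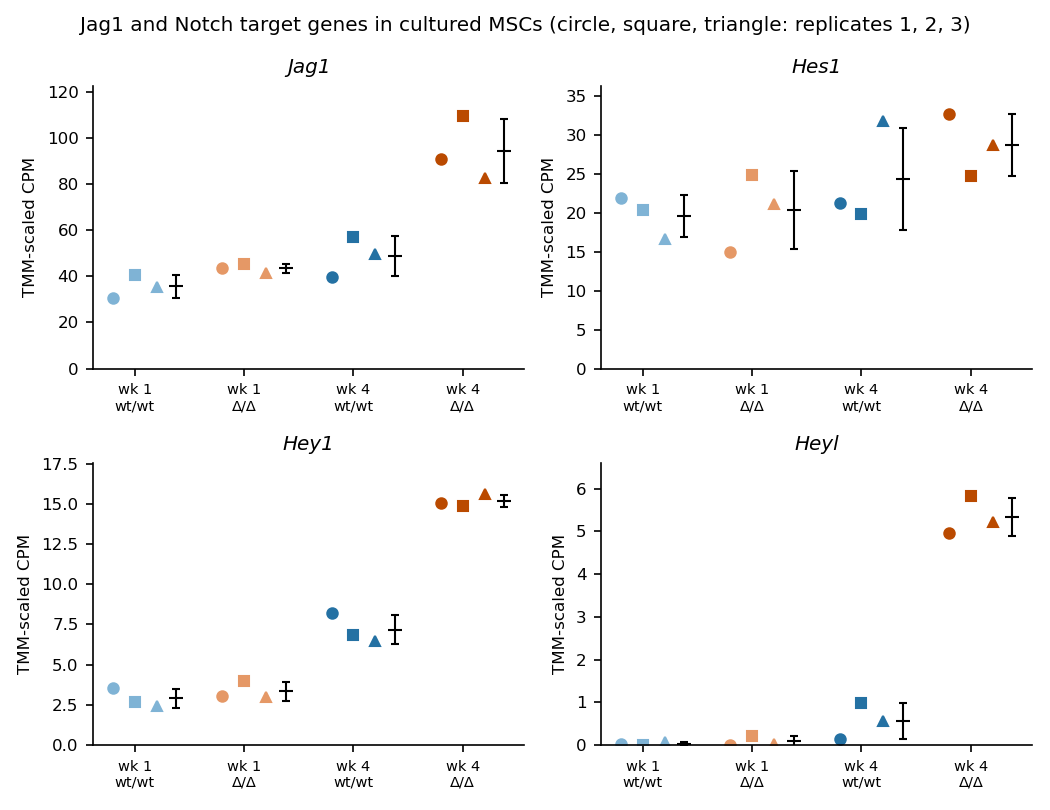
CPM (y axis) of Jag1, Hes1, Hey1 and Heyl in each of the 12 cultured libraries by group (x axis), with the mean and SD of 3 libraries in black. The week 4 Δ/Δ libraries lie above all other cultured libraries for Jag1 (82.4 to 109 CPM), Hey1 (14.9 to 15.6 CPM) and Heyl (4.97 to 5.83 CPM), while the groups overlap for Hes1.

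At week 1 no member passed the test. Of the 6 members other than Heyl that were tested, edgeR's quasi-likelihood test called 0 (1.02% of all genes were called, 0.752% as higher). DESeq2 called 0 of them and 453 genes in all. An unadjusted edgeR p under 0.05 was seen for 0 of them and for 1570 of all 13169 genes. Jag1 was at 30.4, 40.8 and 35.6 CPM in wt/wt and at 43.5, 45.4 and 41.2 CPM in Δ/Δ cells. The Δ/Δ libraries were all higher, by 0.29 on the log2 scale (95% interval -0.05 to 0.62), with an edgeR adjusted p of 0.532. Hey1 was at 3.57, 2.69 and 2.45 CPM in wt/wt and at 3.03, 3.98 and 2.98 CPM in Δ/Δ cells, a difference of 0.18 (95% interval -0.22 to 0.58) between overlapping groups. Hes1 differed by 0.05 (95% interval -0.42 to 0.52). Heyl had 3 counts in the wt/wt libraries together and 5 in the Δ/Δ libraries, a ratio of 2.11 with an exact interval of 0.410 to 13.6, so a difference was not detectable at this depth.

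Between week 1 and week 4, Jag1 and Hey1 rose in both genotypes. In wt/wt cells 2 of the 6 tested members other than Heyl rose and 0 fell, where 34.0% of all genes changed, 17.9% rose and 16.1% fell. In Δ/Δ cells the count was 2 and 0, where 35.1% changed, 18.8% rose and 16.3% fell. The week 4 groups enter both the time and the genotype comparisons, so these comparisons share libraries.

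Hey1 rose by 1.29 ± 0.18 on the log2 scale in wt/wt cells (edgeR adjusted p = 1.41e-04) and by 2.19 ± 0.18 in Δ/Δ cells (edgeR adjusted p = 2.61e-06). All week 4 libraries lay above all week 1 libraries, whose highest value was 3.98 CPM. Jag1 rose by 1.12 in Δ/Δ cells (edgeR adjusted p = 1.55e-04), from at most 45.4 CPM to at least 82.4 CPM. In wt/wt cells it rose by 0.45 (edgeR adjusted p = 0.0404), with overlapping groups, since week 4 replicate 1 (39.5 CPM) lay below week 1 replicate 2 (40.8 CPM). That call was lost with only the 6 wt/wt libraries in the fit (adjusted p = 0.101) and without any of week 1 replicate 1 (0.145) or 3 (0.0952) or week 4 replicate 2 (0.151) or 3 (0.0802). Heyl had 3 and then 40 counts in wt/wt cells, a ratio of 17.8 (exact 95% interval 5.67 to 90.0), and 5 and then 741 counts in Δ/Δ cells, a ratio of 71.0 (30.3 to 219). Hes1 differed by 0.31 in wt/wt and by 0.50 in Δ/Δ cells, neither with a passing test (edgeR adjusted p = 0.0930 in Δ/Δ cells).

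The genotype difference itself changed between the weeks for 1 of the 6 tested members other than Heyl, Hey1, where 7.15% of all genes passed that test, 4.08% passed upwards and 3.08% downwards. Its difference was larger at week 4 by 0.91 on the log2 scale (95% interval 0.36 to 1.45), with an edgeR adjusted p of 0.0481. That call lies at the threshold and was lost in 14 of 19 alternatives (adjusted p from 0.0148 to 0.160). With the replicate number as a block it had an adjusted p of 0.0636, and Jag1 passed in its place (0.66, adjusted p = 0.0466). Without the block, the interaction of Jag1 was 0.67 (95% interval 0.19 to 1.14, edgeR adjusted p = 0.0997). Heyl had too few counts at week 1 for this comparison.

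**Figure D3:**
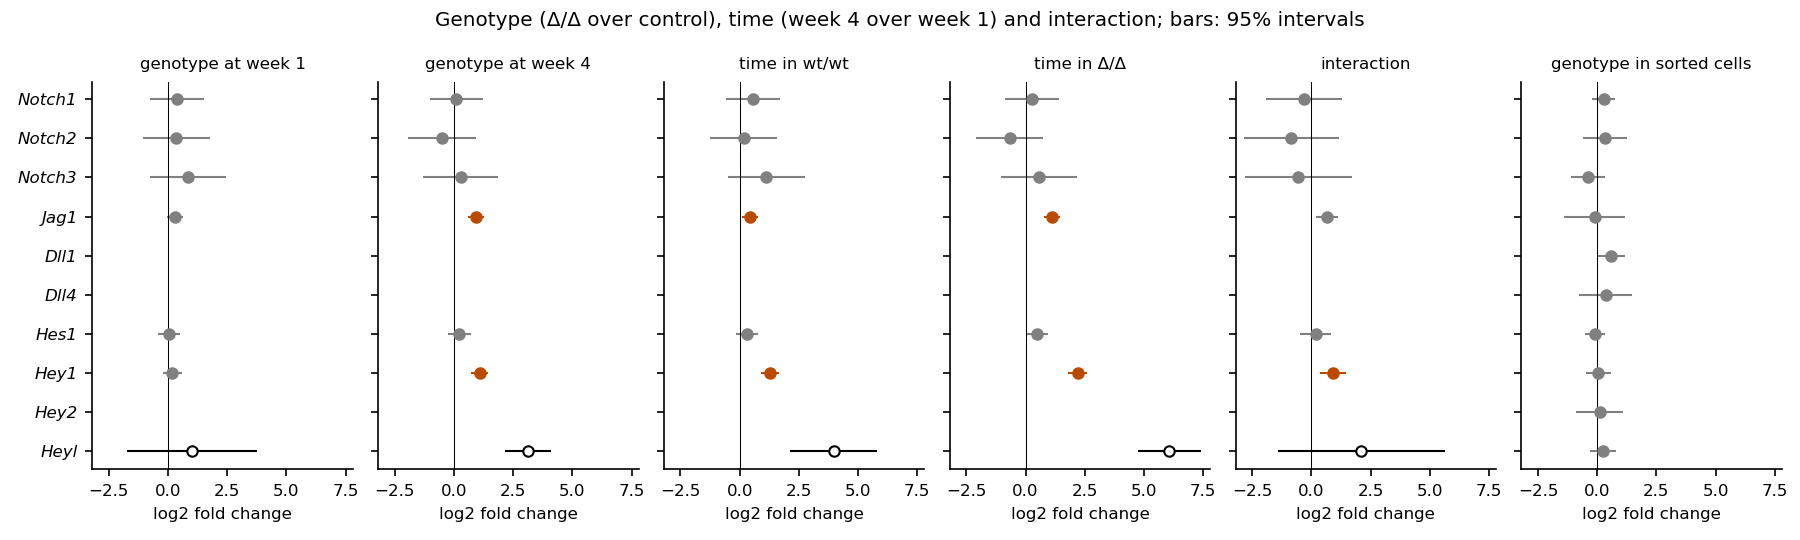
Log2 fold changes (x axis) of the 10 members (y axis) in the 6 comparisons, with 95% intervals; coloured points had an adjusted p under 0.05, and open points are the fits of Heyl in culture, which are not read as calls. Jag1 and Hey1 are coloured at week 4 and over time in both genotypes, Hey1 alone in the interaction and none at week 1 or in the sorted cells.

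At week 4 the receptors differed more between replicates than between genotypes. Notch2, the most abundant receptor in culture, was at 13.9, 170.2 and 149 CPM in the wt/wt libraries and at 32.8, 121 and 82.5 CPM in the Δ/Δ libraries of week 4. Notch1 was at 5.53, 39.2 and 33.3 CPM against 16.0, 37.5 and 30.9 CPM. Notch3 was at 2.32, 37.6 and 34.8 CPM against 9.54, 52.5 and 30.9 CPM. In each of these 6 sets replicate 1, the value given first, was the lowest library.

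The genotype difference at week 4 was 0.10 for Notch1 (95% interval -1.03 to 1.22), -0.50 for Notch2 (-1.92 to 0.92) and 0.29 for Notch3 (-1.29 to 1.87), and none passed the test. Each interval reached past a 2-fold change in at least 1 direction. Week 1 libraries were less spread, with Notch2 at 75.1, 118 and 103 CPM in wt/wt and at 159.6, 80.4 and 135 CPM in Δ/Δ cells. Notch1 ranged from 12.4 to 29.0 CPM and Notch3 from 7.0 to 28.5 CPM at week 1, with overlapping genotypes. The week 1 differences were 0.39 for Notch1, 0.34 for Notch2 and 0.85 for Notch3, and none passed the test.

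Both replicate 1 libraries also leaned to short genes. Against the other libraries of its group, replicate 1 of week 4 wt/wt was 0.22 higher on the log2 scale at the median of the quintile of genes with the shortest exons (up to 2762 bp) and 0.27 lower (-0.27) in the longest quintile (from 8080 bp). For Δ/Δ replicate 1 these medians were 0.13 and -0.14. The receptors have 14232 bp (Notch1), 10782 bp (Notch2) and 8089 bp (Notch3) of exon, all in the longest quintile. Their shifts in wt/wt replicate 1 were -2.60, -3.47 and -3.70, and in Δ/Δ replicate 1 -1.07, -1.59 and -2.02, each several-fold beyond the median of the longest quintile. The shift was smallest for Notch1, the longest of the receptors, and largest for Notch3, the shortest. The correlation of the deviations of both replicate 1 libraries from their group means over expressed genes was 0.873. The part of gene length in the receptor values was not tested.

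Without both replicate 1 libraries, which was tried after their values were seen, Notch1 rose over time in wt/wt cells by 1.05 (edgeR adjusted p = 0.00719) and Notch3 by 1.66 (adjusted p = 0.00313), and Notch3 rose in Δ/Δ cells by 1.01 (adjusted p = 0.0372). With all libraries those differences were 0.57, 1.12 and 0.57, and none passed. Leaving out wt/wt replicate 1 alone gave 1.03 for Notch1 (adjusted p = 0.0284) and 1.64 for Notch3 (adjusted p = 0.0285) in wt/wt cells. The genotype differences of the receptors at week 4 did not pass in either case.

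**Figure D4:**
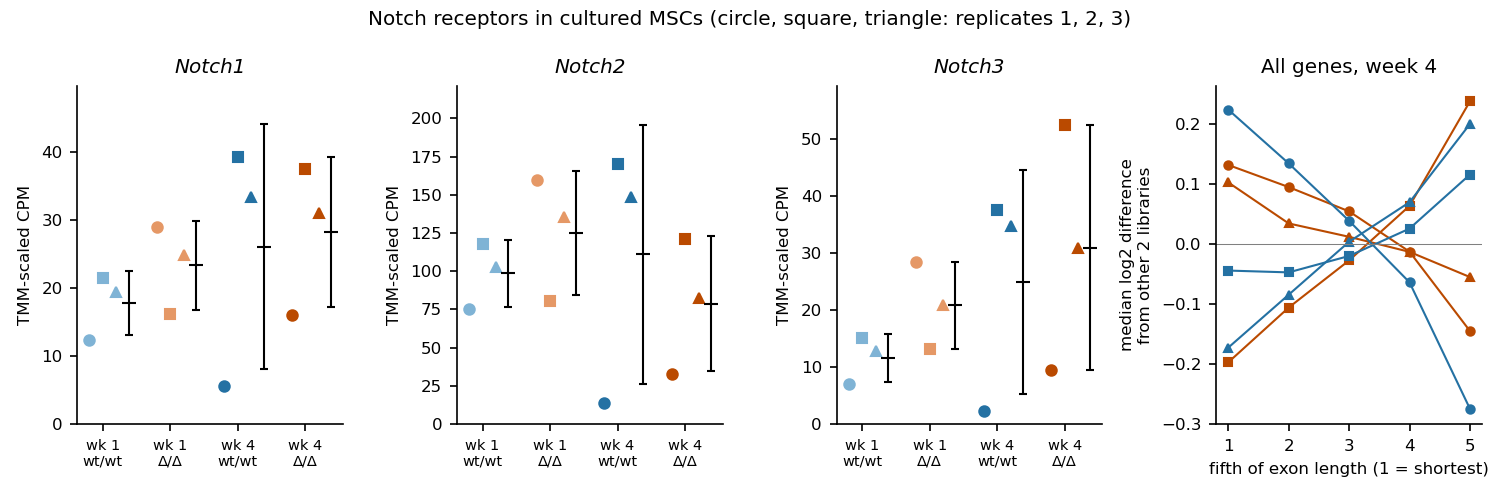
CPM (y axis) of Notch1, Notch2 and Notch3 in each cultured library by group (x axis), with the mean and SD of 3 libraries in black, and for week 4 the median log2 difference of each library from the other libraries of its group over quintiles of exon length (plotted as numbers from the shortest). Both week 4 replicate 1 libraries (circles) are the lowest of their groups for each receptor, and their median falls from 0.22 and 0.13 in the shortest quintile to -0.27 and -0.14 in the longest.

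The Delta-like ligands and Hey2 were close to absent from culture. Dll4 had 2, 1, 2 and 3 counts in the week 1 wt/wt, week 1 Δ/Δ, week 4 wt/wt and week 4 Δ/Δ libraries together. Dll1 had 10, 8, 14 and 56 counts and Hey2 13, 8, 3 and 40 counts in the same order of groups. The pooled Hey2 counts were 6.05 times higher in Δ/Δ than in wt/wt cells at week 4 (exact 95% interval 1.93 to 30.6), and 30 of its 40 Δ/Δ counts came from replicate 3, the deepest library. With no filter on low counts the log2 difference of Hey2 was 2.41 with an edgeR adjusted p of 0.0809. Dll1 passed the filter when certain single libraries were left out. Without week 1 Δ/Δ replicate 1, which held 6 of its 8 counts in that group, it differed over time in Δ/Δ cells by 3.16 (edgeR adjusted p = 0.0104). Without week 1 Δ/Δ replicate 2 or 3 that difference was 1.31 or 0.90 (edgeR adjusted p = 0.226 and 0.387). Without week 4 Δ/Δ replicate 2 it was 1.75 (edgeR adjusted p = 0.0857). Most counts of Dll1 lay in the week 4 Δ/Δ libraries, so these fits are not read as calls. For Dll1 the pooled ratio at week 4 was 1.81 (exact interval 0.996 to 3.53). The intervals cover counting error only.

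In the sorted cells no member differed between the genotypes with a passing test. All 10 members were tested. By edgeR's quasi-likelihood test 0 were called (0% of all 14605 genes were called), DESeq2 called 0 members and 463 genes in all, and 0 members and 1792 genes in all had an unadjusted p under 0.05. The comparison asks whether the deletion altered the cells in the living marrow.

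Dll1 had the largest positive difference, 0.57 on the log2 scale (95% interval -0.03 to 1.18, edgeR adjusted p = 0.428). It was at 30.7, 18.0 and 18.7 CPM in wt/Δ and at 39.9, 29.8 and 30.7 CPM in Δ/Δ cells. The groups overlapped through wt/Δ replicate 1. Dll4 was at 66.7, 36.9 and 16.8 CPM in wt/Δ and at 67.3, 30.2 and 57.5 CPM in Δ/Δ cells, a difference of 0.36 (95% interval -0.76 to 1.49). Jag1 was at 22.1, 13.9 and 76.4 CPM in wt/Δ and at 38.3, 30.2 and 36.1 CPM in Δ/Δ cells. The wt/Δ libraries enclosed the Δ/Δ ones, and the difference was -0.10 (95% interval -1.40 to 1.19). Replicate 3 of wt/Δ decided that sign, since without it the difference of Jag1 was 0.95 (adjusted p = 0.105). That library also leaned to long genes, with a median shift of -0.33 in the shortest and 0.28 in the longest quintile.

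Among the targets, Heyl was at 137, 116 and 169.8 CPM in wt/Δ and at 218, 148 and 135 CPM in Δ/Δ cells (difference 0.24, 95% interval -0.30 to 0.79). Hes1 was at 107, 113 and 81.8 CPM against 104, 79.6 and 100.3 CPM (difference -0.09, 95% interval -0.52 to 0.34). Hey1 was at 54.0, 50.9 and 41.6 CPM against 56.7, 34.9 and 60.6 CPM (difference 0.05, 95% interval -0.49 to 0.60). The genotypes overlapped for each of these targets, and for Hey2, which ranged from 1.91 to 4.48 CPM over the 6 libraries. The receptors differed by 0.27 (Notch1, 95% interval -0.20 to 0.73), 0.34 (Notch2, -0.60 to 1.27) and -0.39 (Notch3, -1.11 to 0.33). These intervals leave room for a 2-fold change in Jag1, Dll1, Dll4, Hey2, Notch2 and Notch3, but not in Hes1, Hey1, Heyl or Notch1.

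Several markers of other cells stood beside these values. The study's flow analysis places tdTomato+ cells in the CD45-TER119-CD31- fraction of marrow, a gate that would remove blood and endothelial cells; the labels describe the RNA libraries as sorted for tdTomato. The 17 endothelial markers summed to 4071 to 4556 CPM in wt/Δ and to 4962 to 5456 CPM in Δ/Δ cells, without overlap, and the 9 blood-cell markers in the table to 1226 to 2502 and 1703 to 2205 CPM. The 10 megakaryocyte markers summed to 1865 CPM in wt/Δ replicate 2 and to 975 CPM in Δ/Δ replicate 3, against 18.2 to 30.2 CPM in the other libraries. The 12 mural markers summed to 963 to 1602 CPM in wt/Δ and to 1202 to 1522 CPM in Δ/Δ cells. In culture, which was scaled apart, they summed to 5106 to 10714 CPM. Rgs5 (46.9 to 69.0 CPM), Kcnj8 (193 to 360.4 CPM), Abcc9, Mcam and Higd1b lay above their range in culture. Acta2 (46.2 to 402 against 3682 to 7941 CPM), Tagln and Cnn1 lay below it, and Cspg4, Pdgfrb, Myh11 and Des overlapped with it. The part of such cells in the levels of Dll1, Dll4, Hey1, Hey2 and Heyl in the sorted libraries was not tested.

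Over all 6 groups the order of mean levels differed by gene. Heyl, Hey1 and Hes1 were highest in the sorted cells, whose genotypes overlapped, followed by week 4 Δ/Δ and then week 4 wt/wt culture. For Heyl and Hey1 each of these steps was free of overlap, while Hes1 overlapped between all cultured neighbours. Jag1 was highest in week 4 Δ/Δ culture, at 94.2 ± 13.8 CPM (SD, n = 3), above all other groups without overlap, and the remaining groups overlapped from each to the next. Notch2 ran the other way, with each cultured mean above the sorted means. Its sorted libraries lay at 8.72 to 24.0 CPM, a range that held the low week 4 wt/wt replicate 1. Notch1 and Notch3 overlapped between all neighbours in the order. Culture and sorted values were scaled apart and were not tested against each other.

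The rest of the pathway moved in both directions, at shares near those of all genes. The list held 62 other genes, of which 53 were tested in culture and 57 in the sorted cells. At week 4, 7 of the 53 were higher and 3 lower in Δ/Δ cells (18.9%, beside 15.7% of all genes), with a median log2 difference of 0.029, beside 0.0024 over all genes. The nuclear complex gave 3 of the 7 (Maml2, Kat2b and Cir1 of 19 tested, 15.8%), and the genes of ubiquitin transfer and endocytosis gave 2 (Dtx4 and Dtx3l of 11 tested, 27.3% with Neurl1a). Dlk2, a non-canonical ligand, and Adam17, a protease that cuts the receptor outside the membrane, were the others. Kat2b, Dlk2 and Adam17 complete this count and were named after their values were seen.

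Dtx4, a ubiquitin ligase of the Deltex family, had the smallest adjusted p among the higher genes, with 2.84 to 6.15 CPM in wt/wt and 9.79 to 16.5 CPM in Δ/Δ cells (log2 difference 1.54, edgeR adjusted p = 0.00129). Dtx3l, another Deltex-like ligase, differed by 1.38 (adjusted p = 0.00988), Cir1, a corepressor that binds RBPJ, by 0.85 (adjusted p = 0.00783) and Maml2, a Mastermind coactivator, by 0.68 (adjusted p = 0.0154). The lower genes were Myc (-0.96, adjusted p = 0.00110), Ccnd1 (-0.95, adjusted p = 0.00710) and Neurl1a (-0.996, adjusted p = 0.0447), whose call was lost with the replicate block. Myc, a growth regulator, was at 71.9 to 89.7 CPM in wt/wt and at 33.5 to 47.9 CPM in Δ/Δ cells, and Ccnd1, which encodes cyclin D1, at 238 to 404 and 146 to 199 CPM. Both are listed as targets of Notch in other tissues, and both moved opposite to Hey1 and Heyl. With only the 6 week 4 libraries in the fit, 5 of the 10 calls were made, for Myc, Dtx3l, Dtx4, Cir1 and Ccnd1.

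**Figure D5:**
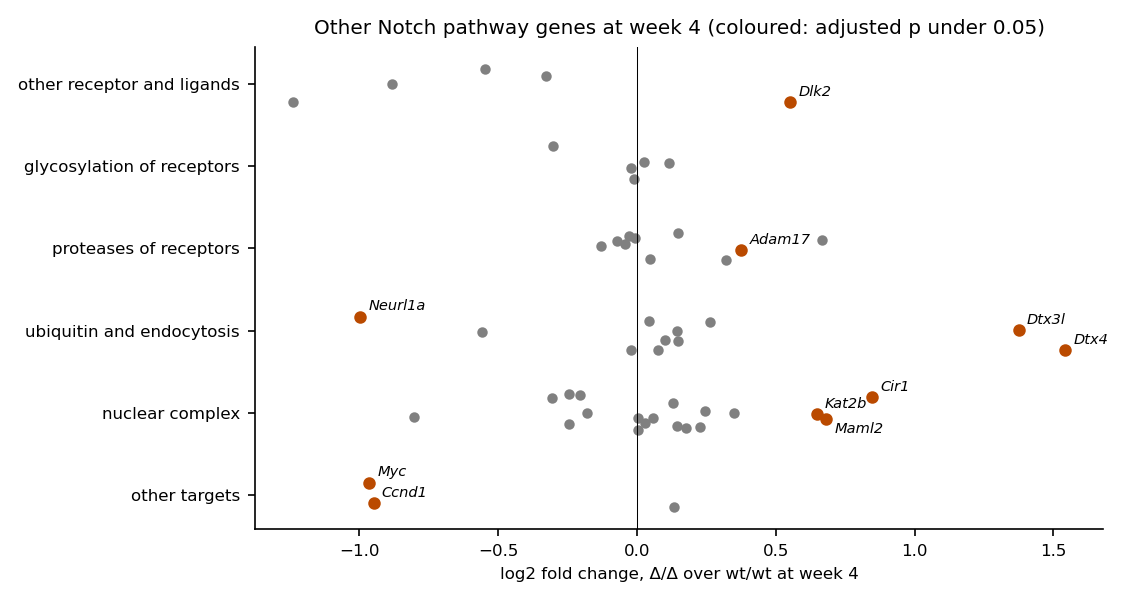
Log2 fold changes of Δ/Δ over wt/wt at week 4 (x axis) for the 53 other pathway genes tested, by role (y axis; points are spread vertically at random within a role). The 10 coloured genes had an adjusted p under 0.05; 7 lie to the right and 3 to the left of 0.

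At week 1, edgeR called 0 of the 53, and 2 had an unadjusted p under 0.05, beside 1570 of all 13169 genes. DESeq2 called 453 genes in all and 2 of the 53. These were Myc (-0.57, adjusted p = 0.0380) and Dtx3l (-0.99, adjusted p = 0.0445), named after their values were seen. In the sorted cells edgeR called 0 of 57, and 8 had an unadjusted p under 0.05, beside 1792 of all 14605 genes. DESeq2 called 463 genes in all and 2 of the 57. These were Eogt (0.74, adjusted p = 0.0333) and Aph1b (0.67, adjusted p = 0.0250), again named after their values were seen. Over time in wt/wt cells 13 of the 53 rose and 7 fell (37.7%, beside 34.0% of all genes), and in Δ/Δ cells 13 rose and 4 fell (32.1%, beside 35.1%). These counts include Jag2 and Dlk1, which met the count filter only through the week where they are high. The γ-secretase and protease group gave 5 of the risen genes in wt/wt cells and 4 in Δ/Δ cells, out of 10 tested, and no fallen gene in either, where 17.9% and 18.8% of all genes rose. Aph1c, a γ-secretase subunit with a close paralogue in Aph1b, rose by 1.66 in wt/wt (edgeR adjusted p = 5.79e-04) and by 2.11 in Δ/Δ cells (adjusted p = 7.9e-05). Tle2, a Groucho corepressor that Hes proteins recruit, rose by 1.24 (adjusted p = 1.7e-05) and 1.01 (adjusted p = 9.0e-05).

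Other differences over time concerned ligands and cofactors. Jag2, the second Jagged ligand, met the count filter only through the week 4 libraries, where it is high. Its tests over time are therefore not read as calls. In wt/wt cells it was at 0.030 to 0.15 CPM at week 1 (7 counts together) and at 1.05 to 1.93 CPM at week 4 (91 counts). In Δ/Δ cells it was at 0.055 to 0.30 CPM (10 counts) and 0.32 to 1.14 CPM (77 counts). The histone acetyltransferase gene Kat2b rose by 0.78 in wt/wt (adjusted p = 0.00383) and by 1.47 in Δ/Δ cells (adjusted p = 4.3e-05), and Dtx4 by 1.86 in Δ/Δ cells (adjusted p = 1.79e-04). In wt/wt cells Tle1 fell by 0.78 on the log2 scale, Dlk2 fell by 0.72, Tle4 fell by 0.88 and Eogt, a glycosyltransferase, fell by 0.56. In Δ/Δ cells Kat2a fell by 0.53, Myc fell by 0.66 and Neurl1a fell by 1.12. Dlk1 met the count filter only through the week 1 libraries, where it is high, so its test is not read as a call. Its Δ/Δ libraries were at 0.55 to 1.09 CPM at week 1 and at 0.070 to 0.20 CPM at week 4.

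The genes most like each member were sought over the 12 cultured libraries among 9404 to 9405 expressed genes, by Pearson's r of log2 CPM. These correlations share libraries and groups and are descriptions. Hey1 was followed by Dcn (0.991), Rgcc (0.988) and Gpx3 (0.986). Heyl was followed by Mark1 (0.982), Pamr1 (0.978) and Vcam1 (0.973), an adhesion molecule of marrow stroma. Jag1 was followed by Ets1, St5 and Sort1 (each 0.979). Notch1 was followed by Man2a2 (0.990), Plxnd1 (0.990) and Notch3 (0.987), Notch3 by Notch1, Tns3 (0.983) and Plxnd1 (0.982), and Notch2 by Piezo1 (0.995), Wdr81 (0.992) and Pcnxl3 (0.989). Hes1 had no such close neighbour, with Irak1bp1 at 0.869, Ccdc71l at 0.824 and Id3 at 0.799. Among the members, Jag1 and Heyl had an r of 0.961, Hey1 and Heyl 0.926 and Jag1 and Hey1 0.871, while Notch2 had -0.37 with Hey1. At week 1 Heyl was near the floor, with 0 to 2 counts per wt/wt library and 0 to 4 per Δ/Δ library. Its correlations therefore rest mainly on its week 4 values.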

How the data were processed

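RNA of 18 libraries was read as full-length cDNA (SMART-Seq v4, Nextera XT), a kit that does not mark strand, so overlapping and antisense genes cannot be separated. The authors mapped reads to mm10 with HISAT2 (2.0.4), used featureCounts (1.6.3) and deposited raw gene counts in a culture table and a sorted table. These counts were tested with edgeR 4.0.16 (R 4.3.3), using filterByExpr with a minimum count of 10, TMM scaling, glmQLFit and glmQLFTest, and Benjamini-Hochberg adjustment over all genes tested (threshold 0.05). The 12 cultured libraries were fitted together and the 6 sorted ones alone. SEs and 95% intervals come from the quasi-likelihood F. Libraries held 12807832 to 90717232 counts, and intervals on pooled counts cover counting error only. The study describes its RNA-sequencing groups as separate mice; the labels do not tie libraries to mice.

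Exon lengths and gene coordinates came from GENCODE M21 (23376 of 24421 symbols matched) and promoters from RefSeq (GRCm38.p6). In simulated counts, the week 4 comparison recovered 74 of 100 genes changed 2-fold and 95 of 100 changed 4-fold, and the sorted comparison 11 and 62. Members and lists were chosen with earlier results of these data known. The genes named were all members, Pot1a, up to 4 called pathway genes per direction and comparison with the smallest adjusted p, and the 3 genes most correlated with each member (mean log2 CPM no lower than 3). Alternatives were RLE scaling, library size alone, 2 other count filters, DESeq2 1.42.0, a replicate block, each library left out and only the libraries compared. Same-numbered wt/wt libraries deviated together over time (r of 0.24, 0.407 and 0.374), a pairing read from the data and not from a label. Same-numbered Δ/Δ libraries gave -0.536, -0.142 and 0.416 over time. Between genotypes the values were 0.0769, -0.184 and -0.163 at week 1 and 0.873, 0.349 and -0.148 at week 4. The replicate number used as a block may thus not mark a shared origin.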

Additional observations from a re-analysis of the deposited data

Results flagged for a closer look

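The genotype difference of Hey1 was larger at week 4 than at week 1 by 0.91 on the log2 scale (edgeR adjusted p = 0.0481), a difference between the weeks that the interaction term tested. The call was kept in 5 of 19 alternatives and lost in 14, with an adjusted p of up to 0.160. Hey1 was higher in 3 of 3 Δ/Δ libraries than in any wt/wt library at week 4. Dtx3l had a difference of 2.36 between the weeks (edgeR adjusted p = 0.00580), with 16.4 to 26.7 CPM in wt/wt and 43.4 to 66.6 CPM in Δ/Δ cells at week 4. At week 1 its Δ/Δ libraries were at 18.9 to 22.4 CPM. Its wt/wt libraries were then at 25.04, 29.5 and 65.5 CPM in rising order, so 1 library stood far above the others. Groups of 3 libraries were not searched by a rule for single outlying samples, and the week 4 replicate 1 libraries were set apart after their values were seen.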

How the results depend on the processing

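The week 4 calls of Jag1 (log2 fold change 0.81 to 1.07 over 15 alternatives) and Hey1 (1.01 to 1.19 over 15) stood under each alternative, as did the rise of Hey1 over time in both genotypes and of Jag1 in Δ/Δ cells. Heyl could be fitted in culture only through the week 4 Δ/Δ libraries, so its fits are not read as calls. The members called in the interaction fell from 1 to 0 with RLE scaling, library size only, no filter and at least 10 counts in every library, and ranged from 0 to 1 with a library left out. For time in wt/wt cells, 2 members were called, or 3 if the fit of Heyl is counted. With Heyl counted wherever it was fitted, the 3 became 1 with only the 6 libraries compared. They became 5 without both week 4 replicate 1 libraries, and 2 to 5 with a library left out. Of the pathway list, DESeq2 called 2 at week 1, 4 in the interaction and 2 in the sorted cells; only the 6 libraries gave 5 at week 4 and 13 over time in wt/wt cells; 3 were called in the interaction without both week 4 replicate 1 libraries. With a library left out the pathway counts were 6 to 11 (week 4), 13 to 18 (time in wt/wt) and 1 to 4 (interaction).

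Signs that turned belonged to differences that had not passed. Notch2 over time in wt/wt cells was -0.082 with the replicate block and -0.33 with the block and only the 6 libraries, Jag1 in sorted cells 0.30 with the block, and without both week 4 replicate 1 libraries Notch1 at week 4 was -0.089 and the interaction of Hes1 -0.0036. With a library left out, the ranges were -0.11 to 0.22 (Hes1), -0.70 to 1.92 (Heyl) and -0.084 to 0.046 (Pot1a) at week 1, -0.37 to 0.50 (Notch1) and -0.32 to 0.72 (Notch3) at week 4, -0.028 to 1.01 (Notch3, time in Δ/Δ), -0.26 to 0.69 (Notch2, time in wt/wt) and -0.76 to 0.11 (Notch1, interaction). In the sorted cells they were -0.15 to 0.38 (Hey2), -0.22 to 0.013 (Hes1), -0.50 to 0.95 (Jag1), -0.0041 to 0.94 (Dll4), -0.094 to 0.25 (Hey1) and -0.28 to 0.014 (Pot1a). The cause of these moves was not tested. All genes called at week 1 numbered 134, but 453 by DESeq2, 237 with only the 6 libraries and 85 with at least 10 counts in every library, and 49 to 181 with a library left out; at week 4 they numbered 2062, or 1267 with only the 6 libraries; in the sorted cells 0, or 463 by DESeq2 and 4 without wt/Δ replicate 2. The replicate block changed the interaction calls of Hey1 and Jag1 and the week 4 calls of Pot1a (adjusted p = 0.0551) and Neurl1a, and no other call of a member. The Pot1a call was also lost with no filter (0.0673), only the 6 libraries (0.164) and 4 single libraries left out (up to 0.108). At low depth, Dll4 and Hey2 in culture were fitted only with no filter on low counts, and were not called there. The other alternatives removed them before the test. Dll1 passed only over time in Δ/Δ cells without week 1 Δ/Δ replicate 1 (3.16, edgeR adjusted p = 0.0104), which is not read as a call. With no filter on low counts that difference was 1.56 (edgeR adjusted p = 0.136).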
